A study of Mus musculus with 3 samples.

Results

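The interleukin-1 (IL-1) family genes described here are 9: the cytokines Il1a, Il1b, Il18 and Il33, the receptor antagonist Il1rn, the signalling receptors Il1r1 and Il1rl1, the shared receptor subunit Il1rap and the decoy receptor Il1r2. They were chosen by symbol and matched by Ensembl ID in 3 tables of UMI counts (unique molecular identifiers, each standing for 1 captured RNA molecule). All 9 were found among the 30406 gene IDs that every table lists. Nuclei came from whole mouse corneas at 7 weeks of age, with 5 mice pooled per library and 1 library per group. WT, KO and KO_PBS stand throughout for the libraries so labelled. By these labels WT was wild type and untreated, KO was an untreated Aire knockout, and KO_PBS was an Aire knockout given phosphate-buffered saline (PBS) for 14 days. Aire lets the thymus show tissue antigens to developing T cells, and its loss in mice leads to autoimmunity that includes dry eye. The age and duration are those of the sample labels, from which the series text departs, and the lacripep arm it names was not analysed here.

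IL-1α and IL-1β bind IL1R1, which recruits IL1RAP and signals through MyD88 and IRAK kinases to NF-κB and MAP kinases. IL-1RA, the product of Il1rn, occupies IL1R1 without signalling, and IL1R2 binds the cytokines but lacks the signalling domain. IL-33 acts through ST2, the product of Il1rl1, together with IL1RAP. IL-1α and IL-33 can be released from damaged epithelium, while IL-1β and IL-18 need cleavage by inflammasome caspases or neutrophil proteases.

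Levels are CPM, the UMIs of a gene scaled to a common total over all barcodes of a library. Single libraries allow no replicate check and no test, and every interval is an exact 95% interval that covers counting error only. A gene was counted as higher or lower by a rule of size. The rule asks for a sum of 50 UMIs in the pair of libraries compared, for levels that differ 2-fold or more (any count under 3 read as 3), and for intervals that do not overlap. In sums over a whole cornea, more cells of a type and more RNA per cell cannot be told apart.

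The members lie in few places in the mouse genome (GRCm38, the build that UCSC calls mm10, GENCODE annotation). Il1r2, Il1r1, Il1rl1 and 3 further receptor genes of the family (Il1rl2, Il18r1 and Il18rap) stand in a row on the plus strand within chr1:40074079-40551705. Il1a (chr2:129299610-129309972) and Il1b (chr2:129364570-129371139) are neighbours on the minus strand. Il1rn (chr2:24336853-24351494, plus strand) is on the same chromosome, next to the IL-36 genes. Il18 is at chr9:50554827-50581840, Il1rap at chr16:26581704-26730117 and Il33 at chr19:29925114-29960718, all on the plus strand. All are protein coding. Another annotated gene overlaps part of Il1a, Il1b, Il18, Il1r1, Il1r2 and Il1rap, on the same strand for Il1r1 and Il1r2. Whether counting used strand is not given in the sources used here.

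The promoters of the 2 agonists and of the antagonist are shown because these genes carry the comparison of agonist with antagonist. Each stretch holds 250 bases before and 50 after a RefSeq start site (GRCm38.p6), printed 5′ to 3′ on the gene's strand. Capitals mark matches to the AP-1 motif TGANTCA and to the TATA box TATAAA.
Il1a, chr2:129309923-129310222, minus strand: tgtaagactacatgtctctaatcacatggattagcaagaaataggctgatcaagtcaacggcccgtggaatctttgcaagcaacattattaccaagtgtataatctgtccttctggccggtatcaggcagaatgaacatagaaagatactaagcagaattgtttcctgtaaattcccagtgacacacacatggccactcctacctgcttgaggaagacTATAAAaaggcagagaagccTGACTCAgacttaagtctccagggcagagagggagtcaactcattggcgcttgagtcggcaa
Il1b, chr2:129371090-129371389, minus strand: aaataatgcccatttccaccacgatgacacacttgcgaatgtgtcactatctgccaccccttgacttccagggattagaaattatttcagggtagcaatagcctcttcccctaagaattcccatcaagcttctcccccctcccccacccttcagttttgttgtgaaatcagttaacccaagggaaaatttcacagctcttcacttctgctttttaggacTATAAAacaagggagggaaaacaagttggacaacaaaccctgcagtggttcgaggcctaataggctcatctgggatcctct
Il1rn, the first of its 3 listed start sites, chr2:24336610-24336909, plus strand: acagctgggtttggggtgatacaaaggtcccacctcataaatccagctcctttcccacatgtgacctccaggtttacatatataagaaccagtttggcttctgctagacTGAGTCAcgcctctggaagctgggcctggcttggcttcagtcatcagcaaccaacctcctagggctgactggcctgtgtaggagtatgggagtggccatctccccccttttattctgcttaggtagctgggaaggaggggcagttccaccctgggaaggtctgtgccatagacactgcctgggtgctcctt

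The agonist promoters each held TATAAA about 30 bases before the start, with its first base at -32 in Il1a and -31 in Il1b. AP-1 matched at -12 in Il1a and at -141 in Il1rn. Over the 14 listed promoters of the 9 members, searched on both strands, AP-1 matched in 2 promoters and TATAAA in 6. Among 32851 mouse promoters of the same length the shares were 7.81% for AP-1 and 13.6% for TATAAA. The NF-κB consensus matched in 1 member promoter, the second of Il1r1, and in 8.46% of all promoters. The PU.1 core GAGGAA matched in 3 member promoters, those of Il1a, Il33 and Il1rl1, and in 28.3% of all promoters. These matches are letters in a window and were not tested as binding sites. TATAAA was added after the sequences had been seen.

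The libraries held 96587 to 114357 barcodes and 178988562 to 352627863 UMIs, with the fewest UMIs in KO_PBS. Aire, the targeted gene, had 15 UMIs (0.0586 CPM, 0.0328 to 0.0967) in WT, 27 (0.0768 CPM, 0.0506 to 0.112) in KO and 68 (0.382 CPM, 0.297 to 0.485) in KO_PBS. It was thus not lower in either library labelled knockout and was highest in KO_PBS. The deleted part of the gene is not given in the sources used here, so these UMIs do not check the genotype labels, and every direction below rests on the labels. Krt12, the keratin of corneal epithelium, stood between 6205 and 26121 CPM, the lowest in KO_PBS. The Y-linked gene Ddx3y had 5.97 CPM in KO_PBS and 0.211 in each of WT and KO, so sex and treatment cannot be told apart in comparisons with KO_PBS. The X-linked gene Xist was also highest in KO_PBS, at 476 CPM, with 269 in WT and 352 in KO. Summed lens markers were 8117 CPM in KO_PBS against 191 in KO and 497 in WT, and all 9 lens markers, 7 photoreceptor markers and 7 melanocyte markers were counted as higher in KO_PBS than in KO. Between 2833 and 3379 barcodes were common to a pair of libraries. The median gene was shifted by a log2 ratio of 0.24 for KO against WT, 0.63 for KO_PBS against KO and 1.27 for KO_PBS against WT. Log2 ratios relative to this median gene (centred on it) are therefore given where they bear on a count or a direction. For KO against WT they were 5.00 for Il1b, 2.19 for Il1rl1, 1.69 for Il1rn, 1.64 for Il1r2, 1.22 for Il1r1, 1.21 for Il1rap and 1.19 for Il1a.

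Il1b stood furthest apart between KO and WT, at 37.9-fold. Il1rl1, Il1rn, Il1r2, Il1r1, Il1rap and Il1a were higher by 2.71- to 5.42-fold. Il33 and Il18 were not counted, and Il18 was the only member with the lower level in KO. The count was thus 7 of 9 higher and 0 lower, where 20.6% of 20252 genes were counted as higher and 8.63% as lower. Relative to the median gene it was again 7 higher and 0 lower, against 14.8% and 12.9% of genes. The members' median log2 ratio was 1.46, against 0.24 over all genes.

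**Figure D1:**
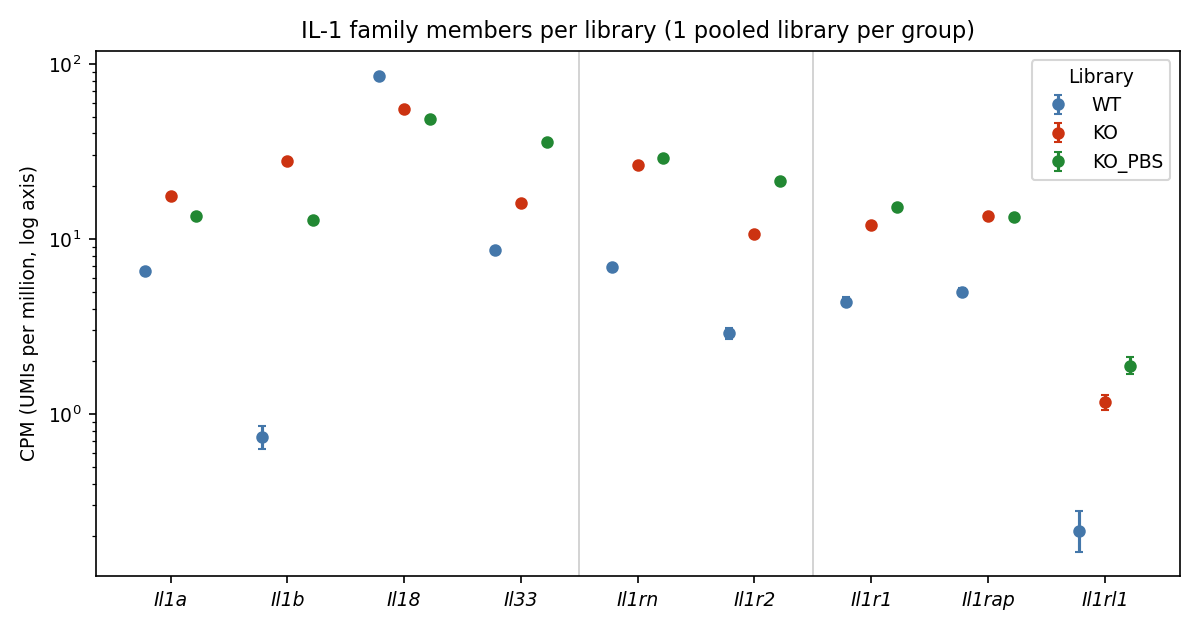
Level of each member in CPM (log axis) in the WT, KO and KO_PBS libraries, with cytokines left, the antagonist and decoy receptor in the middle and the other receptor genes right. Points are single pooled libraries and bars exact 95% counting intervals, many smaller than the point. Il1b runs from 0.735 in WT to 27.8 in KO, and Il18 alone is highest in WT.

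Il1b, the secreted agonist made mainly by myeloid cells, had 188 UMIs and 0.735 CPM (0.633 to 0.847) in WT. It reached 27.8 CPM (27.3 to 28.4) in KO and 12.8 CPM (12.3 to 13.3) in KO_PBS. The 3 intervals were apart, with WT lowest and KO highest. The ratio of KO to WT was 37.9 (32.8 to 44.0), and 98.4% of genes had a smaller log2 ratio. Il1b was 2.18-fold lower in KO_PBS than in KO (2.08 to 2.28) and 17.4-fold higher there than in WT (15.0 to 20.3). As log2 ratios these were -1.12 and 4.12 on total UMIs, and -1.75 and 2.85 relative to the median gene.

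Summed neutrophil markers and summed macrophage or dendritic markers were higher in KO and KO_PBS than in WT, as was Il1b. The 11 neutrophil markers summed to 12.97 CPM in WT, 92.1 in KO and 58.2 in KO_PBS, and 11 of 11 were higher in KO than in WT. In KO_PBS against KO, 6 of the 11 were lower and 0 higher. The 11 macrophage or dendritic markers summed to 97.7, 885 and 836 CPM in the same order, with 10 higher in KO than in WT and 0 lower or higher in KO_PBS than in KO. No marker of either list was at 0 in any library. The 8 mast cell markers, also myeloid, went the other way in KO. They summed to 136, 89.6 and 58.0 CPM in WT, KO and KO_PBS. In KO 1 of them was higher and 5 lower than in WT, with 1 at 0. In KO_PBS 5 were higher and 1 lower than in KO. Lymphoid lists were higher in KO than in WT. The 7 plasma cell markers summed to 128, 1519 and 187 CPM in the same order, with 7 of 7 higher in KO than in WT and 6 of 7 lower in KO_PBS than in KO. In KO against WT 11 of 11 T or innate lymphoid markers and 6 of 7 B cell markers were also higher. The part of any of these cells in the level of Il1b was not tested.

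Il1a, the agonist that epithelial cells hold ready and release on injury, had 6.52 CPM (6.21 to 6.84) in WT, 17.7 CPM (17.2 to 18.1) in KO and 13.5 CPM (12.98 to 14.1) in KO_PBS. Its order was that of Il1b, over a much narrower range. KO exceeded WT by 2.71-fold (2.57 to 2.86). KO_PBS exceeded WT by 2.07-fold, a log2 ratio of 1.05 on total UMIs that became -0.22 relative to the median gene, so the direction depended on the scaling. In WT there were 0.113 UMIs of Il1b per UMI of Il1a (0.0964 to 0.131). KO had 1.58 (1.53 to 1.63) and KO_PBS 0.946 (0.893 to 1.00). Such ratios within a library do not depend on its total, and since UMIs are not corrected for gene length they are read only between libraries. The KO_PBS gene list differs from that of WT and KO, and whether its gene models differ for these members was not tested.

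Il33, the nuclear alarmin of barrier tissues, had 8.58 CPM (8.23 to 8.95) in WT, 16.1 CPM (15.7 to 16.5) in KO and 35.8 CPM (34.9 to 36.7) in KO_PBS. The libraries did not overlap and KO_PBS was highest. The KO level was 1.88-fold that of WT (1.79 to 1.97), short of the fold asked for. Il33 was counted as higher in KO_PBS than in KO, at 2.22-fold (2.14 to 2.30), but its log2 ratio of 1.15 was 0.52 relative to the median gene and then not counted.

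Il18, a cytokine that epithelial cells keep as an inactive precursor, ran the other way. It had 85.6 CPM (84.5 to 86.7) in WT, 54.9 CPM (54.1 to 55.7) in KO and 48.3 CPM (47.3 to 49.3) in KO_PBS. WT was highest and no intervals overlapped. WT exceeded KO by 1.56-fold (1.53 to 1.59) and KO_PBS by 1.77-fold (1.73 to 1.82), neither counted on total UMIs. Relative to the median gene the log2 ratio of KO_PBS to WT was -2.10, which was counted as lower. The 9 corneal epithelium markers summed to 43783 CPM in WT, to 28763 in KO and to 22161 in KO_PBS. The sums had the order of Il18, and Krt12 alone made up 26121, 13793 and 6205 CPM of them in WT, KO and KO_PBS. Of the 9 markers 1 was counted as lower in KO than in WT. In KO_PBS against KO 1 was lower and 1 higher, with a median log2 ratio of 0.02 on total UMIs and -0.61 relative to the median gene. The ratios of Il18 for that pair were -0.19 and -0.82. Their part in the level of Il18 was not tested.

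Il1rn, whose product blocks IL1R1, had 6.88 CPM (6.56 to 7.21) in WT, 26.3 CPM (25.8 to 26.8) in KO and 28.8 CPM (28.0045 to 29.6) in KO_PBS. On total UMIs both libraries labelled knockout were above WT and close to each other. For KO_PBS against WT the log2 ratio was 2.06 on total UMIs and 0.80 relative to the median gene, where it was not counted. KO exceeded WT by 3.82-fold (3.63 to 4.02) and KO_PBS exceeded KO by 1.09-fold (1.06 to 1.13). The log2 ratio between these last libraries was 0.13 on total UMIs and -0.50 relative to the median gene, so no direction is read from it.

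Il1r2, the decoy receptor, had 2.88 CPM (2.68 to 3.10) in WT, 10.6 CPM (10.3 to 11.0) in KO and 21.5 CPM (20.8 to 22.2) in KO_PBS. It was counted as higher in each of the 3 comparisons, at 3.68-fold (3.40 to 3.99) for KO against WT and 2.02-fold (1.93 to 2.12) for KO_PBS against KO. Relative to the median gene the latter was a log2 ratio of 0.39 and was not counted. Il1r2 UMIs per UMI of Il1r1 were 0.661 (0.601 to 0.726) in WT, 0.882 (0.843 to 0.921) in KO and 1.41 (1.34 to 1.48) in KO_PBS. Relative to the signalling receptor the decoy was thus lowest in WT and highest in KO_PBS, whatever the total used.

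Il1r1, the signalling receptor, had 4.36 CPM (4.11 to 4.63) in WT, 12.0 CPM (11.7 to 12.4) in KO and 15.2 CPM (14.7 to 15.8) in KO_PBS. Il1rap, the subunit it shares with ST2, had 4.95 CPM (4.69 to 5.23) in WT, 13.5 CPM (13.2 to 13.9) in KO and 13.3 CPM (12.7 to 13.8) in KO_PBS. The log2 ratio of KO_PBS to KO for Il1r1 was 0.34 on total UMIs and -0.29 relative to the median gene, so its direction depended on the scaling. Both genes were lowest in WT. On total UMIs KO and KO_PBS overlapped for Il1rap, the only neighbours in level that did so for any member. For Il1rap the log2 ratio of KO_PBS to KO was -0.03 on total UMIs and -0.66 (-0.73 to -0.59) relative to the median gene. KO exceeded WT by 2.76-fold for Il1r1 (2.58 to 2.95) and 2.73-fold for Il1rap (2.57 to 2.91). The 9 vascular or lymphatic endothelium markers summed to 25.4 CPM in WT, to 60.7 in KO and to 160.5 in KO_PBS. KO exceeded WT in 6 of 9 of them, KO_PBS exceeded KO in 8 of 9, and no marker was at 0. The 9 keratocyte markers summed to 1642, 3901 and 6413 CPM in that order. In KO 7 of them were higher and 1 lower than in WT, and in KO_PBS 1 was higher and 4 lower than in KO. The part of either cell type in the level of Il1r1 was not tested.

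Il1rl1, the gene of the IL-33 receptor ST2, was the scarcest member. It had 55 UMIs and 0.215 CPM (0.162 to 0.280) in WT, 409 UMIs and 1.16 CPM (1.05 to 1.28) in KO, and 336 UMIs and 1.89 CPM (1.69 to 2.10) in KO_PBS. KO exceeded WT by 5.42-fold, a log2 ratio of 2.44, and the few WT counts gave this ratio a wide interval of 4.08 to 7.32. The log2 ratio of KO_PBS to KO was 0.70 on total UMIs. Relative to the median gene it was 0.07 (-0.14 to 0.28), an interval that includes 0, so no direction is read from it. Il1rl1 UMIs per UMI of Il33 were 0.0250 (0.0188 to 0.0327) in WT, 0.0723 (0.0652 to 0.0799) in KO and 0.0528 (0.0472 to 0.0589) in KO_PBS.

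For KO_PBS against KO, 2 members were counted as higher (Il33 and Il1r2) and 1 as lower (Il1b), where 39.9% of 22416 genes were higher and 4.70% lower. Relative to the median gene 0 members were higher and 2 lower, Il1a (-1.02) and Il1b (-1.75), against 29.9% and 12.9% of genes. Il1b was the 1 member counted as lower under both scalings. For KO_PBS against WT, 8 members were higher and 0 lower, where 57.0% of 22138 genes were higher and 4.06% lower, so the count lies on a high background. Relative to the median gene 3 stayed higher, Il1b, Il1r2 and Il1rl1, and Il18 was lower, against 29.6% and 23.1% of genes. The 3 comparisons share libraries, so their counts do not add to each other.

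**Figure D2:**
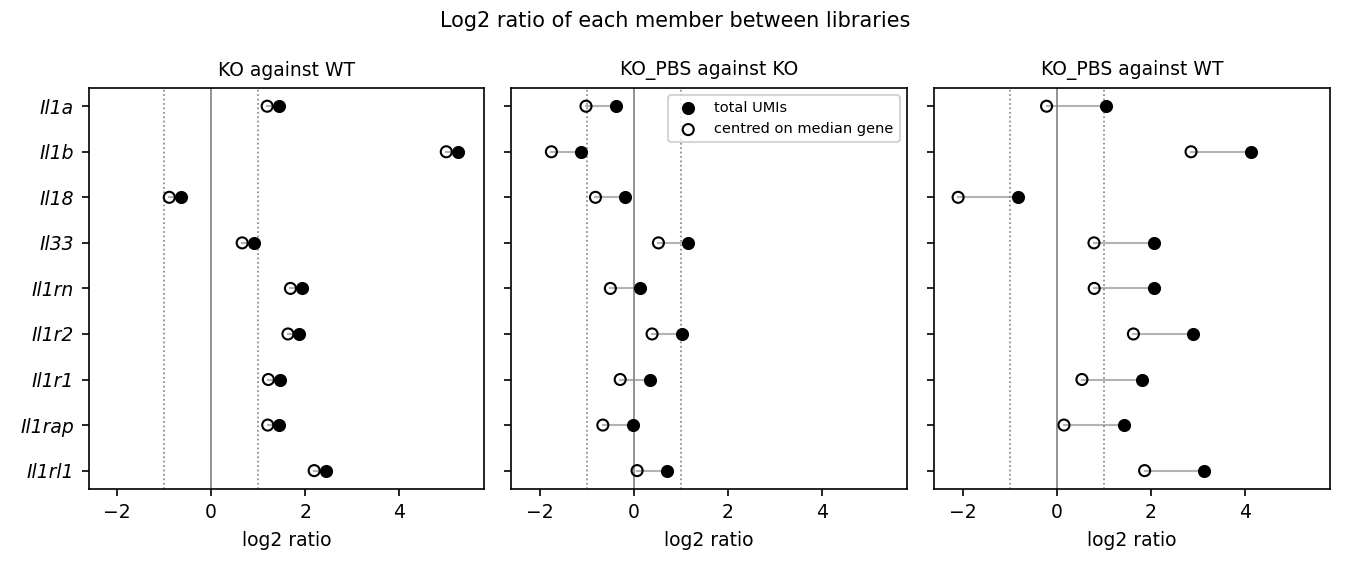
Log2 ratio of each member for KO against WT, KO_PBS against KO and KO_PBS against WT, on total UMIs (filled) and relative to the median gene (open), with dotted lines at a fold of 2 either way. The open and filled points are 0.24 apart in the first panel, 0.63 in the second and 1.27 in the third. Il1rn and Il1r1 change sign in the second panel and Il1a in the third.

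The question the grouping asks is how antagonist and decoy stand to the agonists. UMIs of Il1rn and Il1r2 together per UMI of Il1a and Il1b together were 1.35 (1.27 to 1.43) in WT, 0.811 (0.792 to 0.830) in KO and 1.91 (1.84 to 1.98) in KO_PBS. The ratio was lowest in KO and highest in KO_PBS, and no intervals overlapped. As a log2 ratio it was -0.73 for KO against WT and 1.24 for KO_PBS against KO.

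The lower ratio in KO depended on Il1b. Per UMI of Il1a alone the ratio was 1.498 (1.41 to 1.59) in WT, 2.09 (2.03 to 2.15) in KO and 3.72 (3.55 to 3.89) in KO_PBS, so KO then stood above WT. Per UMI of Il1b alone it was 13.3 (11.5 to 15.5), 1.33 (1.29 to 1.36) and 3.93 (3.75 to 4.12) in that order, so WT stood above both. The step from KO to KO_PBS was upward whichever agonist was used. With Il1rn alone in place of both genes the ratio per agonist UMI was 0.949 in WT, 0.578 in KO and 1.09 in KO_PBS. For Il1r2 alone it was 0.398, 0.233 and 0.817.

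**Figure D3:**
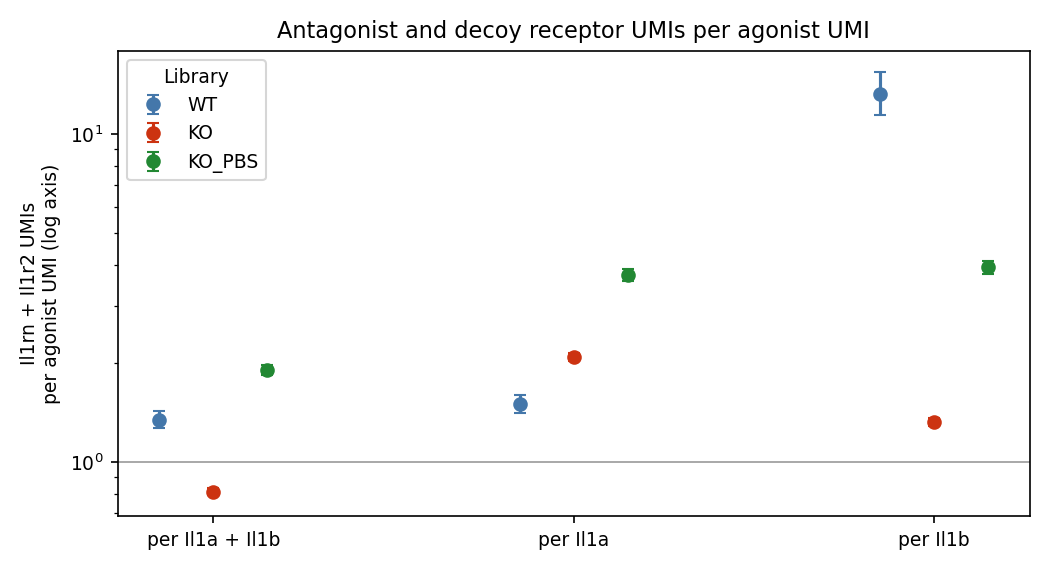
UMIs of Il1rn and Il1r2 per UMI of Il1a and Il1b together, of Il1a alone and of Il1b alone (log axis) in each library, with exact 95% intervals. KO is the lowest library at 0.811 per UMI of both agonists but lies above WT per UMI of Il1a, at 2.09 against 1.498.

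Regulators of the other branches differed in direction. Il36rn, the antagonist of the IL-36 receptor, was lower in KO (0.860 CPM) than in WT (5.03 CPM). Its UMIs per UMI of the agonists Il36a, Il36b and Il36g went from 0.211 (0.198 to 0.224) in WT to 0.0200 (0.0178 to 0.0224) in KO and 0.0249 (0.0222 to 0.0280) in KO_PBS. The 3 agonists themselves were 1.28- to 1.99-fold above WT in KO and were not counted. Il18bp, which binds and neutralises IL-18, was higher in KO (19.0 CPM) than in WT (0.914 CPM). It had 0.0107 UMIs per UMI of Il18 in WT (0.00935 to 0.0121), 0.347 in KO (0.337 to 0.356) and 0.411 in KO_PBS (0.395 to 0.427). Antagonist per agonist was therefore lower in KO for IL-36, higher for IL-18, and for IL-1 lower or higher with the choice of agonist.

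Counts of members at other folds were read against all genes in the same way. At a fold of 1.5, 8 members were higher and 1 lower in KO than in WT, where 34.6% and 15.8% of all genes were. For KO_PBS against KO the same fold gave 3 and 1 (50.9% and 8.59% of genes), and for KO_PBS against WT 8 and 1 (68.6% and 7.53%). At a fold of 3, KO exceeded WT in 4 members and fell below it in 0 (10.7% and 3.64% of genes). That fold left 0 members either way for KO_PBS against KO (30.4% and 2.71%), and 6 higher and 0 lower for KO_PBS against WT (42.9% and 1.82%).

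Of 12 other family genes, 11 had enough UMIs in KO against WT, and 4 were higher and 3 lower, where 20.6% of all genes were higher and 8.63% lower. Centred on the median gene they were 3 higher and 3 lower, against 14.8% and 12.9%. The higher genes were Il18rap (8.22 against 0.242 CPM) and Il18r1 (16.4 against 4.01 CPM), the subunits of the IL-18 receptor, with Il18bp and the IL-36 receptor Il1rl2 (16.2 against 8.04 CPM). Of these, Il1rl2 was no longer counted once centred, at a log2 ratio of 0.77. Il1rapl1 (204 against 1256 CPM) and Il1rapl2 (6.41 against 14.7 CPM), very long genes known from synapses, were lower, as was Il36rn. T or innate lymphoid markers, whose cells can carry the IL-18 receptor, summed to 8.36 CPM in WT against 174 in KO and 167 in KO_PBS, with 11 of 11 higher in KO than in WT, and their part in its level was not tested. In KO_PBS against KO 1 other family gene was higher and 0 lower, where 39.9% and 4.70% of all genes were. That gene was Il1rapl2, at 40.0 against 6.41 CPM, 6.24-fold higher (5.95 to 6.55) and also 2.72-fold above WT (2.61 to 2.83). After centring, Il1rapl2 was still higher than in KO, and 2 other genes were lower, where 29.9% of all genes were higher and 12.9% lower. Against WT the log2 ratio of Il1rapl2, 1.44 on total UMIs, became 0.17 with centring and was not counted. All 6 genes of the receptor row on chromosome 1 were counted as higher in KO than in WT (20.6% of all genes), and 5 of them relative to the median gene (14.8%). For KO_PBS against KO 1 of these 6, Il1r2, was higher and 0 lower, where 39.9% of all genes were higher. On the median-gene scale 0 were higher and 1, Il1rl2, lower, against 29.9% and 12.9% of all genes.

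Among processing genes, the inflammasome parts, caspases, gasdermins and neutrophil proteases that mature or release these cytokines, 13 of 17 stood higher in KO than in WT and 0 lower, against 20.6% and 8.63% of all genes. With centring on the median gene 11 were higher and 0 lower, against 14.8% and 12.9%. Their median log2 ratio was 2.57, against 0.24 over all genes. The neutrophil protease Elane had 0 UMIs in WT, where a floor of 3 counts is 0.0117 CPM and the exact upper limit 0.0144 CPM. Its 7.36 CPM in KO was 628-fold that floor, which is no lower bound, and the exact limits put the ratio at 510.3-fold or more. Its neighbour Prtn3 had 0.0938 CPM in WT and 14.1 in KO. Casp4 (23.8 against 1.75 CPM), the caspase of the noncanonical inflammasome, and Aim2 (19.2 against 1.66 CPM), a sensor of cytosolic DNA, followed among counted genes of at least 5 CPM. In KO_PBS against KO 4 were higher, where 39.9% of all genes were, among them Nlrc4 (10.6 against 2.80 CPM), Gsdme (69.2 against 31.1 CPM) and Casp8 (48.1 against 23.7 CPM). In the same comparison 3 were lower, among them Elane (0.0675 CPM) and Prtn3 (0.950 CPM), where 4.70% of all genes were. After centring, 1 was higher and 6 lower, against 29.9% and 12.9%, and Gsdme (0.52) and Casp8 (0.39) were no longer counted. Elane and Prtn3 were also among the 10 leading genes of the 471 KO barcodes rich in neutrophil markers.

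Among the adaptors, kinases and NF-κB subunits of the signalling list, 10 of 23 stood higher in KO than in WT and 0 lower, with a median log2 ratio of 0.90. All genes gave 20.6% and 8.63%, and relative to the median gene the list had 8 higher and 0 lower against 14.8% and 12.9%. Peli1 (71.0 against 14.9 CPM), a ubiquitin ligase of this pathway, Irak3 (8.72 against 2.64 CPM), an inhibitory IRAK, Nfkb1 (95.3 against 32.2 CPM) and Tab2 (73.1 against 26.1 CPM) had the highest ratios among those of at least 5 CPM. For KO_PBS against KO 0 of 23 were counted in either direction, where 39.9% of all genes were higher and 4.70% lower. After centring, 3 were lower, Chuk, Rel and Mapk14, and 0 higher, against 12.9% and 29.9% of all genes, and these 3 are named after their values were seen.

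Among known IL-1 targets, 28 of 31 with enough UMIs stood higher in KO than in WT and 0 lower, with a median log2 ratio of 3.26. The shares of all genes were 20.6% and 8.63%. After centring on the median gene 25 were higher and 1 lower, Sod2 (-1.05), against 14.8% and 12.9%. Saa3, an acute phase protein, had 1229 CPM in KO and 0.653 in WT. The collagenase Mmp13 (8.76 against 0.0781 CPM) and the monocyte chemokines Ccl7 (23.3 against 0.340 CPM) and Ccl2 (17.0 against 0.711 CPM) came next among targets of at least 5 CPM. In KO_PBS against KO 9 of 31 targets were lower and 2 higher, where 4.70% of all genes were lower and 39.9% higher. With centring, 13 were lower and 1 higher, against 12.9% and 29.9%. Saa3 (58.4 CPM in KO_PBS), the matrix protease Mmp3 (105 against 1092 CPM), Mmp13 (2.31 CPM) and the neutrophil chemokine Cxcl5 (2.68 against 10.2 CPM) were lower, and the cytokine Tnf (16.3 against 3.39 CPM) was higher. Many of these genes also answer to other cytokines, and the lists were made with earlier results of these data known.

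For KO_PBS against WT, 5 of 11 other family genes, 13 of 15 processing genes, 13 of 23 signalling genes and 25 of 31 targets were higher, where 57.0% of all genes were. The family and signalling counts are near or below that share. Lower were 2 other family genes and 0 of the other lists, against 4.06% of all genes. Once centred on the median gene the higher counts were 2, 7, 1 and 19 in the same order, against 29.6%, and the lower counts 3, 1, 3 and 1, against 23.1%.

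**Figure D4:**
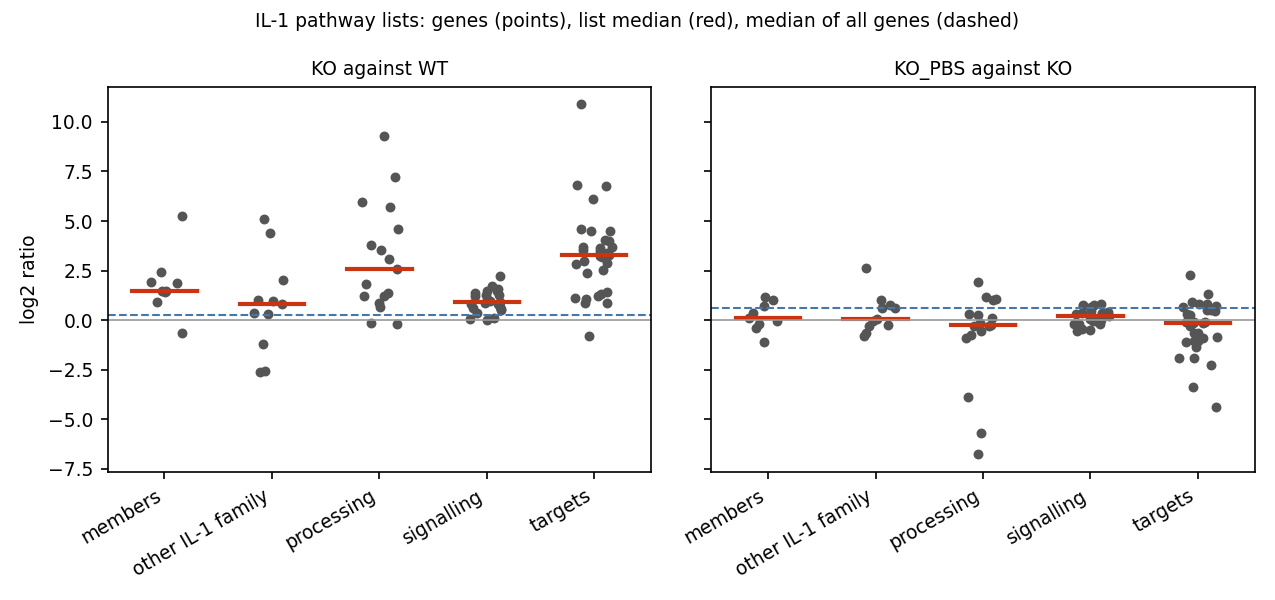
Log2 ratio of each gene (points, spread sideways at random) in the 9 members and 4 pathway lists for KO against WT and KO_PBS against KO, with each list's median in red and the median of all genes dashed. For KO against WT the medians are 1.46 for members and 3.26 for targets, and for KO_PBS against KO 5 of 5 list medians lie below the median of all genes.

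To set members beside cell types, barcodes were called rich in a class when markers of that class exceeded what the library's average profile predicted, and those rich in no class numbered 92036 for WT, 101775 for KO and 111833 for KO_PBS. No barcode was rich in corneal epithelium markers. These markers summed to between 22161.5 and 43782.8 CPM in the average profiles, and a barcode had to reach 3 times the number so predicted. The rule therefore cannot say whether these cells are present. Members were also present in shallow barcodes. In the 25% of barcodes with the fewest UMIs, 22 of 27 levels (9 members in 3 libraries) had an interval that overlapped that of all barcodes. The other 5 were Il1rn and Il18 in KO, and Il1rn, Il1r1 and Il1rap in KO_PBS, where Il1r1 had 11.2 CPM (9.92 to 12.5) against 15.2 and Il1rap 10.3 CPM (9.15 to 11.6) against 13.3. Il1b had 27.9 CPM in KO, against 27.8 over all barcodes, and Il18 had 84.3 CPM in WT, against 85.6. Between bins of 25% of barcodes ranked by UMIs, the widest range of a member with over 100 UMIs a library was 1.74-fold, for Il1r1 in KO_PBS (11.2 to 19.4 CPM). Whether UMIs in such barcodes come from nuclei or from free RNA was not tested. Of 369 pairs of a member with a marker-rich set, 31 (8.40%) lay above the barcodes of no class by intervals that did not overlap, and 14 (3.79%) below. Over all genes of at least 50 UMIs that are no marker, 5.27% of pairs lay above and 3.50% below. Members held 55 to 21909 UMIs in a library, and the shares were not matched for UMIs, on which the width of the intervals depends.

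Barcodes rich in conjunctival epithelium markers (435 in WT, 335 in KO, 167 in KO_PBS) held more Il1r2 in every library. The level was 10.6 CPM against 2.86 in barcodes of no class in WT, 19.0 against 10.5 in KO, and 146 (114 to 183) against 21.2 in KO_PBS. The last rests on 72 UMIs, 1.88% of the gene's UMIs in that library. Among all 114357 KO_PBS barcodes, of any class or none, 1 held 14 Il1r2 UMIs, the most for any member in any barcode. Whether that barcode belongs to this set was not examined. Il1rn was also higher in the conjunctival-marker-rich barcodes in WT (29.0 against 6.75 CPM) and KO_PBS (125 against 28.5 CPM). In KO its level there, 35.8 CPM (26.5 to 47.3), overlapped that of barcodes of no class, 26.3 CPM. The antagonist and the decoy were thus both above the rest in this set in WT and KO_PBS. So were Il1a (60.7 against 13.3 CPM) and Il1r1 (34.4 against 14.9 CPM) in KO_PBS. That set was deeper than barcodes of no class, with a median of 2750 against 1420 UMIs. Across all KO_PBS barcodes, Il1r1 rose from 11.2 CPM in the shallowest bin to 19.4 in the deepest, and Il1a from 12.2 to 15.3. Il1rn and Il1r2 did not rise between these bins. The sets were not matched for depth, and its part in these levels was not tested. Summed conjunctival markers were 901 CPM in WT, 484 in KO and 775 in KO_PBS.

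Barcodes rich in markers of stressed or cornifying epithelium (112 in WT, 592 in KO) held more Il18, at 208 CPM (169 to 254) against 85.7 in WT and 76.7 CPM (66.2 to 88.5) against 55.0 in KO. In KO they also held more Il1a (37.8 against 17.6 CPM) and Il33 (31.7 against 16.0 CPM), the releasable alarmins. Both sets were deeper than barcodes of no class, with medians of 4040 against 2240 UMIs in WT and 3699.5 against 2954 in KO. The sets were not matched for depth, and its part in these levels was not tested. The corresponding KO_PBS set was not used because its leading genes lacked its own markers.

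Il1b was above the rest in barcodes rich in macrophage or dendritic markers in KO, at 90.5 CPM (59.6 to 132) against 27.9. These 75 barcodes held 27 Il1b UMIs, 0.276% of the gene's UMIs in KO. They were deeper than barcodes of no class, with a median of 3792 against 2954 UMIs. In KO_PBS 56 such barcodes held 6 Il1b UMIs, 35.0 CPM (12.8 to 76.2), which overlapped the 12.99 CPM of barcodes of no class. In WT the set had 2 Il1b UMIs, 15.4 times the level in barcodes of no class with a counting interval of 1.85 to 56.5. Keratocyte-marker-rich barcodes also exceeded the rest in KO, at 37.9 CPM (30.4 to 46.6), and in WT, at 2.05 CPM (1.02 to 3.66) against 0.710. The 471 KO barcodes rich in neutrophil markers had 19.7 CPM of Il1b (13.7 to 27.4). This was below the 27.9 CPM of barcodes of no class, but the intervals overlapped. Il1b was below the rest in plasma-cell-marker-rich barcodes in KO (23.3 CPM) and, in KO_PBS, in corneal-endothelium-marker-rich barcodes (5.51 CPM) and in basal-epithelium-marker-rich barcodes (0 UMIs). Il1r1 was above the rest in barcodes rich in vascular or lymphatic endothelium markers in each library, from 6 or 7 UMIs. Its levels there were 40.5 CPM against 4.29 in WT, 82.9 against 12.1 in KO and 53.9 against 14.9 in KO_PBS. These barcodes were deeper than those of no class in each library, with medians of 2785 against 1420 UMIs in KO_PBS. Depth was not matched. Of 41 sets used, Il1r1 lay above the rest in 7 and below in 2, so it was not particular to endothelium-marker-rich barcodes.

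**Figure D5:**
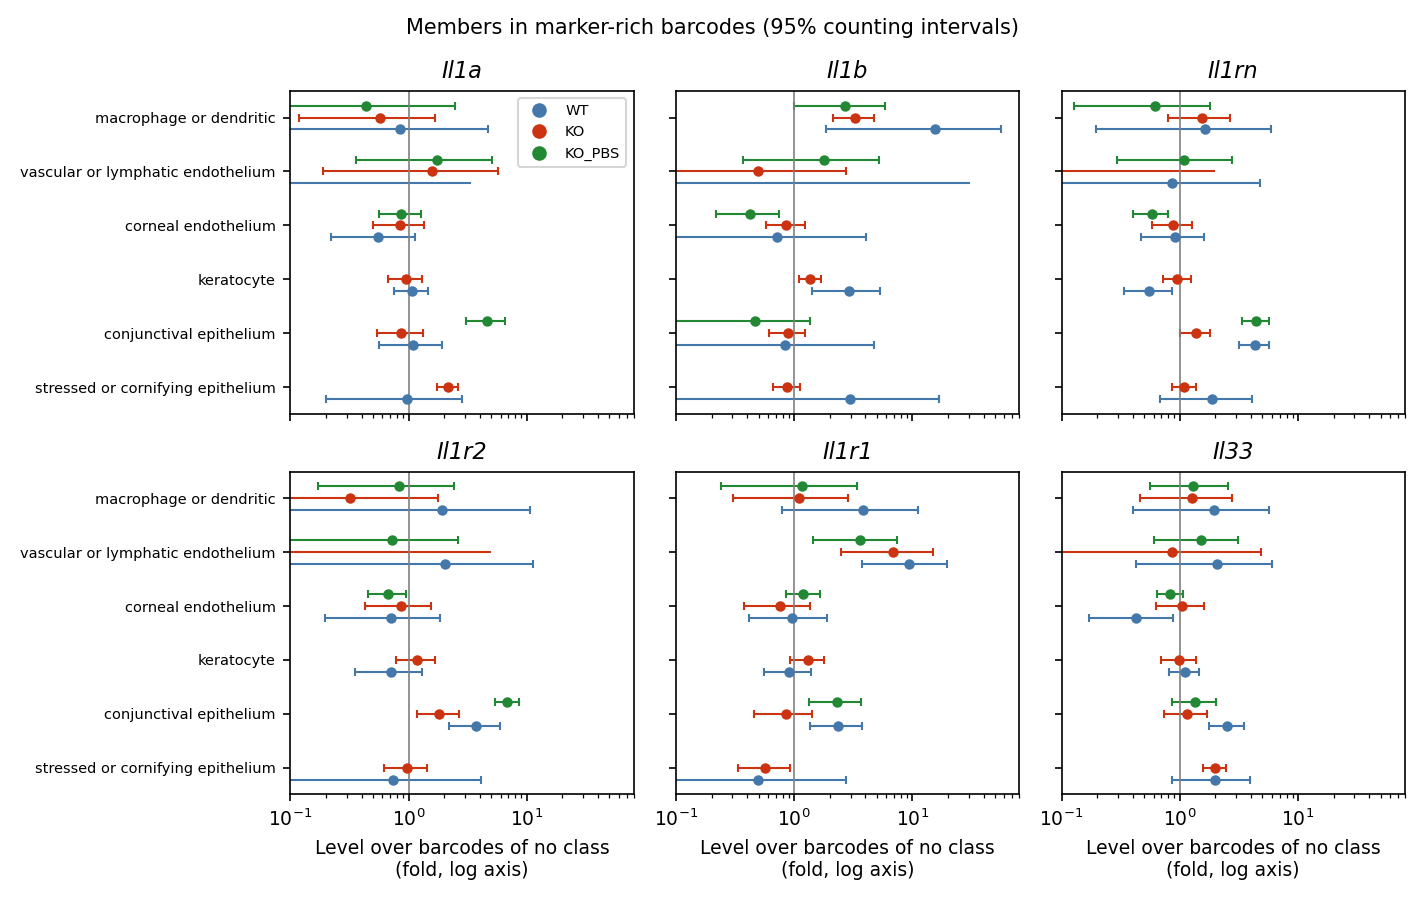
Level of 6 members in marker-rich barcodes divided by the level in barcodes of no class of the same library (log axis), with 95% counting intervals. A line without a point is a set with 0 UMIs, and sets not used are left out. Il1r2 lies to the right of 1 in conjunctival-marker-rich barcodes and Il1r1 in endothelium-marker-rich barcodes of all 3 libraries.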

How the data were processed

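Nuclei from whole mouse corneas were profiled in 3 libraries (WT, KO and KO_PBS), grouped by the labels. For each barcode the authors deposited raw UMI counts of every gene. The file headers name Cell Ranger 7.0.1 and the submitters' processing notes mm10. Which annotation and barcode filter were used, and whether intronic reads counted, is not given in the sources used here. There were 32285 genes listed for WT and KO and 31053 for KO_PBS. The 30406 IDs common to all held 99.3% to 99.6% of UMIs.

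Counts were summed over all barcodes and scaled to CPM with python 3.11.15, numpy 2.4.6, scipy 1.17.1 and pandas 2.3.3, and drawn with matplotlib 3.10.9. Intervals are exact Poisson for levels and exact binomial (Clopper-Pearson) for ratios of genes within a library. The calling rule was checked on simulated Poisson counts drawn from the WT profile. These hold counting error only, so the check cannot show how the rule behaves with variation between mice or libraries. No doublet caller was run. A barcode was rich in a class with at least 3 marker UMIs from 2 markers, 3 times the number predicted and a Poisson tail under 1e-06, and barcodes rich in several classes were set aside. A class was used with at least 50000 UMIs and more of its own markers than of any other class among its 10 leading genes, conditions set after the data were seen.

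All 9 members are named. Other pathway genes named are those counted as higher or lower that reach 5 CPM in either library, up to 4 per list and direction, and the IL-36 agonists as the denominator of a ratio. Members and lists were chosen with earlier results of these data known. Promoters are from RefSeq (GRCm38.p6) and gene positions from GENCODE, on the same build. Proteins were not used here. Alternatives were another scaling, other totals, folds, barcode sets and depths.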

Additional observations from a re-analysis of the deposited data

How the results depend on the processing

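No paired analysis was possible because each group holds 1 library. No library could be left out, and counting intervals do not measure variation between mice. Of 189 log2 ratios of members under alternatives, 153 stayed within the counting interval, 35 moved outside it, and 1 counted member reversed, Il1a for KO_PBS against WT (-0.22 relative to the median gene). Among members not counted, the sign changed for KO_PBS against KO in Il1rn (-0.50) and Il1r1 (-0.29) relative to the median gene, and in Il1rap (0.04, an interval that includes 0) without the 25% of barcodes with the fewest UMIs. For KO against WT, a fold of 1.5 counted 1 member as lower and a fold of 3 counted 4 as higher, where 15.8% and 10.7% of all genes were. For KO_PBS against KO, scaling to the median gene counted 0 members as higher and 2 as lower, and 3 other pathway genes as higher and 24 as lower. Of all genes 29.9% were then higher and 12.9% lower. In that comparison Il1r2 (log2 1.02) fell just short of the fold, leaving 1 member higher, with totals free of mitochondrial, immunoglobulin, crystallin and 2 other genes, AY036118 and Gm42418 (0.94), and with counts thinned to the smaller total (0.99). A fold of 3 there counted 0 members either way and 3 other pathway genes as higher, where 30.4% of all genes were higher and 2.71% lower. At a fold of 1.5, 21 other pathway genes were higher and 20 lower, where 50.9% of all genes were higher and 8.59% lower. For KO_PBS against WT, scaling to the median gene counted 3 members as higher and 1 as lower, and 29 other pathway genes as higher and 8 as lower. Of all genes 29.6% were then higher and 23.1% lower. In that comparison a fold of 1.5 counted 1 member as lower and a fold of 3 counted 1 other pathway gene as lower, where 7.53% and 1.82% of all genes were. The log2 ratio of antagonist and decoy per agonist for KO against WT, -0.73, was 0.48 per Il1a and -3.33 per Il1b. For KO_PBS against KO, 1.24 became 0.92 with Il1rn alone, 1.81 with Il1r2 alone, 0.83 per Il1a and 1.57 per Il1b. For KO_PBS against WT, 0.50 became 0.21, 1.04, 1.31 and -1.76 in the same order. The cause of these shifts was not tested. A stricter Poisson tail gave 23 in place of 31 pairs of member and marker-rich set above the rest.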

Other observations

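Genes whose level followed a member most closely were sought over 47 sums of barcodes among 19107 genes, with Pearson's r on log2(CPM + 1). The sums were those of at least 50000 UMIs. They were 41 marker-rich sets described in the report, 3 further marker-rich sets whose leading genes did not bear out the class, and the barcodes of no class of each of the 3 libraries. The sums share 3 libraries and differ in depth, so r is a description. For Il1b these were the chemokine Ccl7 (0.83) and the immunoglobulin light chain genes Iglc2 (0.83) and Iglc3 (0.82). For Il1rn they were Fut11 (0.74), Csk (0.74) and Ptp4a2 (0.73), and for Il33 C2cd5 (0.87), Atg4b (0.85) and Trim23 (0.83).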
